A study of Homo sapiens with 4 samples.

Results

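The nuclear-encoded genes of the respiratory chain and ATP synthase were followed in H1 cells, an established human embryonic stem cell line, at day 2 of hematopoietic differentiation with and without IWP2. The members were chosen by symbol: NDUFA, NDUFB, NDUFC, NDUFS and NDUFV genes with a number, SDHA to SDHD, UQCR genes of complex III, the widely expressed COX subunit genes and symbols made of ATP5 and further letters or numbers, which leaves out hyphenated readthrough names. Of 58365 rows in the table, 118 symbols matched, 40 of them were dropped as pseudogene symbols (P and a number at the end), and 78 rows remained as members. The symbol SDHD stood on 2 of these rows, so the members held 77 different symbols. All 4 libraries came from cells grown in Custom mTeSR1 with 40 ng/ml activinA and 50 ng/ml BMP4 per the labels (the study's methods give these doses the other way round), which push pluripotent cells towards mesoderm. The DMSO group (the vehicle, n = 2) received no inhibitor. The IWP2 group (n = 2) received IWP2, an inhibitor of the acyltransferase Porcupine that stops cells from secreting Wnt proteins, at a dose not given in the sources used here. The labels do not say whether replicates came from separate cultures, and the study's general statement on independent experiments does not name these libraries, so the p-values below measure only the spread between these libraries.

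The respiratory chain passes electrons from NADH (complex I) and succinate (complex II) through ubiquinone, complex III and cytochrome c to oxygen at complex IV, and pumps protons out of the mitochondrial matrix on the way. ATP synthase, or complex V, lets the protons back through its membrane part Fo and makes ATP in its head F1. Nearly all subunits are encoded in the nucleus and imported, while a small catalytic core comes from mitochondrial DNA. Pluripotent stem cells are known for a strong reliance on glycolysis, and respiration is known to gain weight as they differentiate.

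Levels are FPKM, fragments normalised to transcript length and library size, and differences are IWP2 minus DMSO on the log2(FPKM + 1) scale with their standard error (SE). Total FPKM was 616418 to 653850 per library, and 13831 to 13926 genes reached 1 FPKM. Read depth is unknown, since the values are model estimates without counts. The mitochondrial transcript MT-ATP8 alone took 1.51% to 5.10% of the total and differed more within each group than between the groups. In this bulk RNA, fewer cells of a type and less RNA per cell cannot be told apart.

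The labels were checked with marker lists. Of 9 Wnt response genes 7 were lower with IWP2 (limma, adjusted p under 0.05), among them LEF1, from 9.34 and 9.70 FPKM to 0.144 and 0.239 FPKM, and SP5, from 53.2 and 47.0 FPKM to 0.379 and 0.363 FPKM. All 8 mesoderm markers were lower, and their summed level was 1115 and 1419 FPKM in the DMSO libraries against 150.05 and 172.4 FPKM in the IWP2 libraries. Among 6 pluripotency markers POU5F1, SOX2 and DPPA4 were higher and TDGF1 was lower, with a summed level of 1317 and 1131 FPKM in DMSO against 2411 and 2406 FPKM in IWP2. Of 5 endoderm markers 4 were lower, with sums of 305.7 and 259.0 FPKM against 87.6 and 103.0 FPKM. Of 4 ectoderm markers OTX2 was lower, TFAP2A was higher, and PAX6 and SOX1 were too low to be tested. No marker list was at 0 in either group, and the part of this difference in cell state in the values below was not tested.

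Against this change of state the respiratory chain genes moved little. Of the 76 members that passed the filter (a mean of at least 1 FPKM over the libraries), 3 were called at an adjusted p under 0.05, which is 3.95% of them, while 15.2% of all 14022 genes tested were called (6.75% higher and 8.44% lower with IWP2), and 15.0% of the 4461 genes with a mean of at least 20 FPKM. ATP5G1, a gene for the proton-carrying c subunit of ATP synthase, and COX7C, a small subunit of complex IV, rose with IWP2, and NDUFA6, an accessory subunit of complex I, fell. Without adjustment 10 of the 76 had p under 0.05, against 30.3% of all genes tested. Both IWP2 libraries lay above both DMSO libraries in 20 members (27.9% of all genes tested, or 3916 genes, did so) and below both in 9 (31.9% of all genes tested). Groups without overlap, as named for single members below, were thus no more common among the members than among all genes tested. The members that did not pass the filter were ATP5J2LP, listed at 0 in every library, and ATP5L2, at 0.187 FPKM in DMSO replicate 2 and listed at 0 in the others.

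The differences of the members were narrow and lay slightly above 0. Their median was 0.07 (interquartile range -0.01 to 0.14), beside -0.02 (-0.23 to 0.20) over all genes tested and -0.01 (-0.18 to 0.14) over the genes with at least 20 FPKM, and the extremes were -0.45 for NDUFA6 and 0.60 for ATP5G1. A difference above 0 was seen in 55 of the 76, against 47.6% of all genes tested. The 95% confidence interval lay within a 1.5-fold change in either direction for 70 of 76 members (92.1%), for 48.2% of all genes tested and for 72.4% of the genes with at least 20 FPKM. It lay within a 2-fold change for 75 of 76, the exception being the weakly expressed second SDHD row. The intervals that crossed 1.5-fold were those of ATP5G1, COX7C, NDUFA3, NDUFA6, ATP5S and that SDHD row. The median of the members depended on single libraries: without IWP2 replicate 2 it was -0.01, and without IWP2 replicate 1 it was 0.13.

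**Figure D1:**
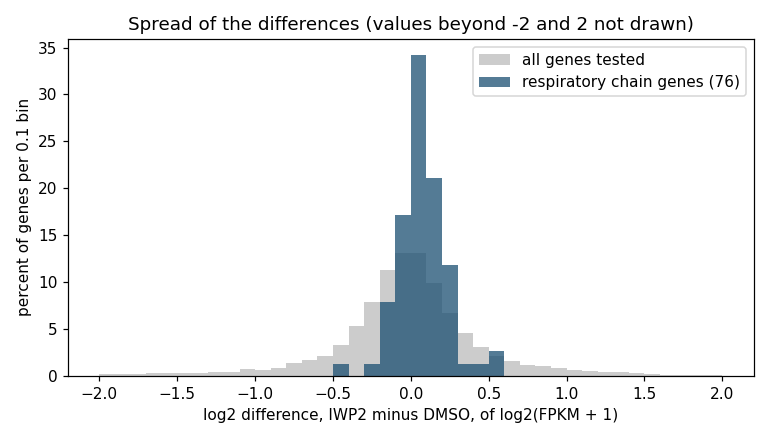
Percent of genes (vertical axis) in bins 0.1 wide of the log2 difference, IWP2 minus DMSO (horizontal axis). The 76 members tested are blue, and the genes tested, without those on chromosome Y and XIST, are grey. Values beyond -2 and 2 are not drawn. The members form a narrow peak around their median of 0.07, while the grey genes spread far to both sides.

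IWP2 replicate 2 was set apart from IWP2 replicate 1 across the members. It was higher in 66 of 76, with a median difference of 0.12 on the log2 scale, although over all 14022 genes it was higher in 7343 with a median of 0.01. DMSO replicate 2 was higher than DMSO replicate 1 in 28 of 76, with a median of -0.03. The members took 1.72% and 1.74% of total FPKM in the DMSO libraries and 1.76% and 1.89% in the IWP2 libraries. Cytosolic ribosomal protein genes, another set of small and abundant transcripts, also had their highest median level in IWP2 replicate 2, with 1362 and 1372 FPKM in DMSO and 1376 and 1499 FPKM in IWP2. What set this library apart was not tested.

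Promoter windows of the 3 called members, and of SDHB, are shown because they hold different sets of the short motifs that are known from promoters of respiratory genes. The motifs searched on both strands were GCATGCGC (NRF1, nuclear respiratory factor 1), CCGGAAG (ETS factors, including GABP), AAGATGGCG (YY1), GGGCGG (SP factors), CCAAT (the CCAAT box) and TATAAA (the TATA box). Each window runs from 250 bases before to 50 bases after an annotated start. It is written in the direction of transcription, with motif matches in capitals. For each gene 1 window is printed, although 2 transcript starts were found for SDHB and NDUFA6 and 3 for COX7C and ATP5G1. Most of the NDUFA6 window lies inside the NDUFA6 row, which runs to position 42090955. The sequences are those of RefSeq on GRCh38.p14.
ATP5G1 (ATP5MC1 in RefSeq), chr17:48892537-48892836, plus strand: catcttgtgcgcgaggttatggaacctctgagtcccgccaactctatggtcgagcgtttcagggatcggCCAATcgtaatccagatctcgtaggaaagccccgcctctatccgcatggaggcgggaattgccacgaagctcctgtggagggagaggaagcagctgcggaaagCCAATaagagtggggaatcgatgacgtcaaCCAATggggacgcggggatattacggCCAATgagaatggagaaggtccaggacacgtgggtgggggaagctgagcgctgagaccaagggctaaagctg
COX7C, chr5:86617691-86617990, plus strand: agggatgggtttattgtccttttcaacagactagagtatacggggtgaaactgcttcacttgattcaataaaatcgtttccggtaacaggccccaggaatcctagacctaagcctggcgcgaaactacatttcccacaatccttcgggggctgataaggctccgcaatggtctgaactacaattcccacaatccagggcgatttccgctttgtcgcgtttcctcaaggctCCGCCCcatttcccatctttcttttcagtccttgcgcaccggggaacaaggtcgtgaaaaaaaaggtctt
NDUFA6, chr22:42090723-42091022, minus strand: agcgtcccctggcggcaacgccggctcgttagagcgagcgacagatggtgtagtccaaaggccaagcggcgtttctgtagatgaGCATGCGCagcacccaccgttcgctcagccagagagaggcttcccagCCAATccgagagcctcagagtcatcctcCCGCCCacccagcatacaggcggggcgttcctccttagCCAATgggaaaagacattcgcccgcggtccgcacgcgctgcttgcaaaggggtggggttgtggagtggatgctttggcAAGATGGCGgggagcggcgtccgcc
SDHB, chr1:17053983-17054282, minus strand: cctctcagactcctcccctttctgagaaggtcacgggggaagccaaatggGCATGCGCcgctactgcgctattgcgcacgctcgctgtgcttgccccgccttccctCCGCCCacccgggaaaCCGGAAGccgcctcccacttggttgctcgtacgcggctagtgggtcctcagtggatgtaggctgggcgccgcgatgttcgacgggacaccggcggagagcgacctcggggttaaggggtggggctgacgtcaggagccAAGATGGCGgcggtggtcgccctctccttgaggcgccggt

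The printed ATP5G1 window held 4 CCAAT boxes and no match to the other motifs, and the printed COX7C window held 1 SP match. The NDUFA6 window held NRF1, YY1 and SP matches with 2 CCAAT boxes, and the SDHB window held NRF1, ETS, YY1 and SP matches. Of 75 member symbols looked up, 62 had a RefSeq window, with 74 windows in all. NRF1 letters stood in 15 of the 74 (20.3%), against 3.05% of all 35116 RefSeq windows, and YY1 letters in 10 (13.5%), against 1.75%. ETS letters stood in 21 (28.4%), against 10.3%. SP letters stood in 60.8% against 45.0%, the CCAAT box in 31.1% against 34.6% and the TATA box in 8.11% against 11.5%. The background windows were not limited to expressed genes, while 93.4% of the tested members reached 20 FPKM. Whether windows of other abundant genes hold these letters as often was not tested. Different motifs overlapped each other, as ETS and SP letters, in 1 member window.

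The differences of members with and without these letters overlapped. The 14 genes with NRF1 letters had a median difference of 0.02 (-0.45 to 0.26) and the 48 without had 0.07 (-0.20 to 0.60). The 20 genes with ETS letters had a median of 0.10 and the 42 without had 0.05, and the 9 genes with YY1 letters had 0.05 and the 53 without had 0.08. The 39 genes with SP letters had a median of 0.05 (-0.45 to 0.52) and the 23 without had 0.13 (-0.17 to 0.60), the widest gap of the motifs searched. CCAAT boxes went with 0.06 (20 genes) against 0.07 (42 genes) and TATA boxes with 0.04 (6 genes) against 0.07 (56 genes). These are descriptions of windows, and a match is not a bound site.

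**Figure D2:**
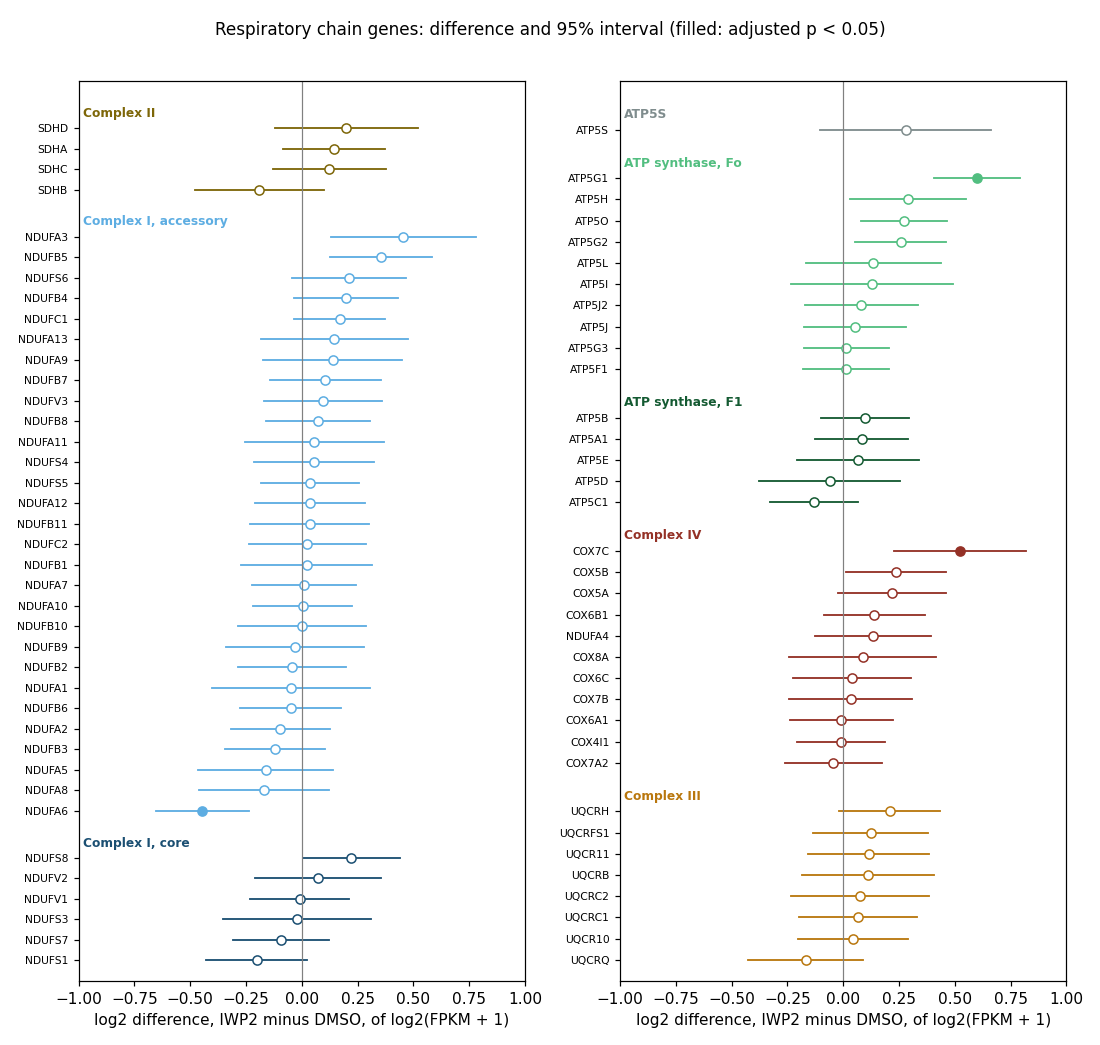
Log2 difference, IWP2 minus DMSO (horizontal axis), with 95% confidence interval for 74 members grouped by complex, where filled points have an adjusted p under 0.05. The second SDHD row is not drawn. ATP5G1 and COX7C lie to the right of 0 and NDUFA6 to the left, and most other intervals include 0.

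Complex I, the NADH dehydrogenase, was represented by 36 members. Its 7 nuclear core subunits, which together hold the flavin and the iron-sulfur clusters, had a median difference of -0.02. None was called by limma and 1 had an unadjusted p under 0.05. NDUFS8, which carries iron-sulfur clusters, had 86.5 and 89.9 FPKM in DMSO and 98.7 and 107.4 FPKM in IWP2. This was the highest difference among the core subunits, at 0.22 (SE 0.08, adjusted p = 0.155). NDUFS1, the largest core subunit, went the other way, with 36.3 and 39.5 FPKM in DMSO and 32.4 and 33.1 FPKM in IWP2 (difference -0.20, SE 0.09, adjusted p = 0.206). The groups did not overlap for either gene, but neither passed the test.

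The 29 accessory subunits of complex I, which build and stabilise the enzyme around the core, had a median difference of 0.03 and 20 of 29 were above 0. NDUFA6 (ENSG00000184983.9, chr22:42085525-42090955), an LYR-motif subunit of the matrix arm, had 91.0 and 88.9 FPKM in DMSO and 63.6 and 68.1 FPKM in IWP2. Both IWP2 libraries were clearly below both DMSO libraries. The difference was -0.45 (SE 0.08, 95% interval -0.65 to -0.24, adjusted p = 0.0246 by limma), a ratio of means of 0.732. The gene NDUFA6-AS1 (chr22:42090931-42137742) lies on the opposite strand. It overlaps the NDUFA6 row only at positions 42090931 to 42090955, where that row, on the minus strand, starts. NDUFA6-AS1 fell as well, from 3.62 and 4.12 FPKM to 1.18 and 0.920 FPKM (difference -1.25, SE 0.17, adjusted p = 0.0104). The library kit does not mark strand, so reads of both genes in the overlap cannot be told apart. With any 1 library left out, the NDUFA6 difference stayed between -0.49 and -0.40, with adjusted p of 0.0804 to 0.160. The call was also lost without the variance trend (adjusted p = 0.0598) and without the filter on low values (adjusted p = 0.0748).

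Other accessory subunits fell short of the threshold. NDUFA3, a small membrane subunit, had 135.8 and 110.3 FPKM in DMSO and 177.9 and 158.8 FPKM in IWP2. The groups were apart, with a gap between them about as wide as the spread within DMSO, and the difference was 0.45 (SE 0.13, adjusted p = 0.0777). NDUFB5, a membrane-arm subunit, had 37.1 and 38.4 FPKM against 46.4 and 50.8 FPKM (difference 0.35, SE 0.09, adjusted p = 0.0596), again without overlap. Just these lay beyond 0.25 on the log2 scale among the accessory subunits besides NDUFA6. Levels ranged from NDUFV3, at 13.4 to 15.6 FPKM in the libraries, to NDUFS5, at 503.7 to 552.0 FPKM, both with overlapping groups. NDUFB4, NDUFC1 and NDUFS6 also lay above DMSO without overlap (differences of 0.20, 0.17 and 0.21). NDUFA2, NDUFA8 and NDUFB3 lay below it (-0.10, -0.17 and -0.12). The adjusted p of these genes was 0.229 to 0.520 by limma. In all, 5 of the 29 accessory subunits lay above DMSO and 4 below it without overlap, against 27.9% and 31.9% of all genes tested.

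Complex II, succinate dehydrogenase, is wholly nuclear and joins the chain to the citric acid cycle. None of its 5 rows was called by limma, and 0 had an unadjusted p under 0.05. The flavoprotein SDHA had 22.8 and 23.3 FPKM in DMSO and 24.8 and 26.4 FPKM in IWP2 (difference 0.15, SE 0.09, adjusted p = 0.347). The iron-sulfur subunit SDHB, with a promoter window printed above, had 37.6 and 42.8 FPKM against 32.8 and 37.4 FPKM (difference -0.19, SE 0.11, adjusted p = 0.3298). Both genes were apart between groups, in opposite directions, but SDHB only just, at 37.6 FPKM in DMSO replicate 1 and 37.4 FPKM in IWP2 replicate 2. The membrane anchors SDHC (87.0 and 80.2 FPKM in DMSO, 85.5 and 96.9 FPKM in IWP2) and SDHD (30.9 and 37.2 FPKM, then 36.7 and 41.6 FPKM) overlapped between groups. The second SDHD row (ENSG00000255292.7) had 2.73 FPKM in DMSO replicate 1, 3.32 FPKM in IWP2 replicate 2 and was practically 0 in the other libraries, so its interval of -2.17 to 2.38 left its direction unknown.

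Complex III, the cytochrome bc1 complex, had 8 members, 7 of them above 0, with a median difference of 0.09. None was called by limma, and 0 had an unadjusted p under 0.05. UQCRH, the hinge subunit next to cytochrome c1, was its most abundant member, with 463.6 and 461.9 FPKM in DMSO and 507.0 and 564.5 FPKM in IWP2 (difference 0.21, SE 0.09, adjusted p = 0.193). The spread between the IWP2 libraries was larger than the gap between the groups. UQCRQ, a ubiquinone-binding subunit, was the single member of the complex below 0, with 164.3 and 142.1 FPKM against 140.5 and 131.5 FPKM (difference -0.17, SE 0.10, adjusted p = 0.338). The Rieske protein UQCRFS1, which passes electrons to cytochrome c1, had the lowest level, at 20.7 and 21.3 FPKM against 21.6 and 24.4 FPKM.

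Complex IV, cytochrome c oxidase, was represented by 11 members with NDUFA4, a protein once counted to complex I and now assigned to complex IV. Their median difference was 0.09 and 1 was called. COX7C (ENSG00000127184.12, chr5:86617904-86620962), a small membrane subunit, had 488.1 and 424.1 FPKM in DMSO and 608.7 and 703.0 FPKM in IWP2. Both IWP2 libraries were well above DMSO, although the libraries within each group also differed. The difference was 0.52 (SE 0.12, 95% interval 0.23 to 0.82, adjusted p = 0.0420 by limma), a ratio of means of 1.44. The call was lost with any 1 library left out, where the difference ranged from 0.42 to 0.63 and the adjusted p from 0.0825 to 0.224. It was also lost without the variance trend (adjusted p = 0.0793) and without the filter on low values (adjusted p = 0.170). The copy COX7CP1 on chromosome 13 was listed at 23.9 and 21.4 FPKM in DMSO and at 0 and 37.8 FPKM in IWP2. The COX7C value is uncertain as far as reads could be assigned to either copy.

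The heme-bearing core of complex IV is encoded in mitochondria, and of the nuclear subunits around it COX7C alone was called. COX5B, a zinc-binding matrix subunit, had 145.1 and 133.4 FPKM in DMSO and 157.9 and 170.4 FPKM in IWP2 (difference 0.24, SE 0.09, adjusted p = 0.150), and COX5A had a difference of 0.22 (SE 0.10, adjusted p = 0.203). COX4I1, the regulatory subunit that binds ATP, had 331.7 and 328.2 FPKM against 319.0 and 336.1 FPKM, which overlapped, with a 95% interval of the difference of -0.21 to 0.19. COX6B1, which faces cytochrome c, was at 169.1 and 168.9 FPKM against 176.3 and 197.0 FPKM (difference 0.14, SE 0.09, adjusted p = 0.354). COX7A2 had the lowest difference of the complex at -0.04, and COX7B the lowest level at 17.1 to 19.6 FPKM.

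The F1 head of ATP synthase, where ATP is made, had 5 members, with no call by limma and 0 at an unadjusted p under 0.05. The catalytic subunit ATP5B had 309.6 and 324.9 FPKM in DMSO and 334.3 and 344.3 FPKM in IWP2 (difference 0.10, SE 0.08, 95% interval -0.10 to 0.30). Its partner ATP5A1 had 238.0 and 254.5 FPKM against 254.7 and 267.0 FPKM (difference 0.08). The shaft subunit ATP5C1 lay on the other side, with 183.0 and 174.7 FPKM against 165.6 and 160.9 FPKM (difference -0.13, SE 0.08, adjusted p = 0.327). All 3 were apart between groups by small steps that the test did not separate from the spread, ATP5A1 only just. Of all genes tested, 27.9% lay above DMSO and 31.9% below it without overlap. ATP5E had the lowest level of the head, at 17.6 to 20.4 FPKM.

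The membrane part Fo with the peripheral stalk held the largest difference among the members, in 1 of 3 genes that encode the same mature protein. ATP5G1, ATP5G2 and ATP5G3 encode c subunits that are identical after removal of different import signals, and form the rotating ring through which protons pass. ATP5G1 (ENSG00000159199.13, chr17:48892765-48895871) had 94.1 and 93.5 FPKM in DMSO and 140.1 and 145.4 FPKM in IWP2. The libraries of each group agreed closely and the groups were far apart. The difference was 0.60 (SE 0.08, 95% interval 0.41 to 0.79, adjusted p = 0.00836 by limma), a ratio of means of 1.52. The call held without either DMSO library, and was lost without IWP2 replicate 1 (difference 0.63, adjusted p = 0.0801) or IWP2 replicate 2 (difference 0.57, adjusted p = 0.0939).

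ATP5G2 had 220.6 and 215.6 FPKM in DMSO and 251.3 and 270.6 FPKM in IWP2, without overlap (difference 0.26, SE 0.08, 95% interval 0.05 to 0.46, adjusted p = 0.102). ATP5G3 had 240.0 and 238.2 FPKM against 237.4 and 245.4 FPKM, so that its groups overlapped (difference 0.01, SE 0.08, 95% interval -0.18 to 0.20). The intervals of ATP5G1 and ATP5G3 did not meet, and the ratio of ATP5G1 to ATP5G3 within a library, which does not depend on scaling between libraries, was 0.392 and 0.393 in DMSO and 0.590 and 0.592 in IWP2. ATP5G1 made up 16.97% and 17.09% of the summed FPKM of the 3 genes in DMSO and 22.28% and 21.98% in IWP2, and the sum itself was 554.7 and 547.4 FPKM against 628.8 and 661.5 FPKM. An exact permutation test of 2 libraries against 2 cannot give a p below 0.333, so these ratios are given as values. Dropped pseudogene symbols, several of them copies of ATP5G genes, were low: 27 of the 40 were listed at 0 in every library and the highest single value was 2.27 FPKM.

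**Figure D3:**
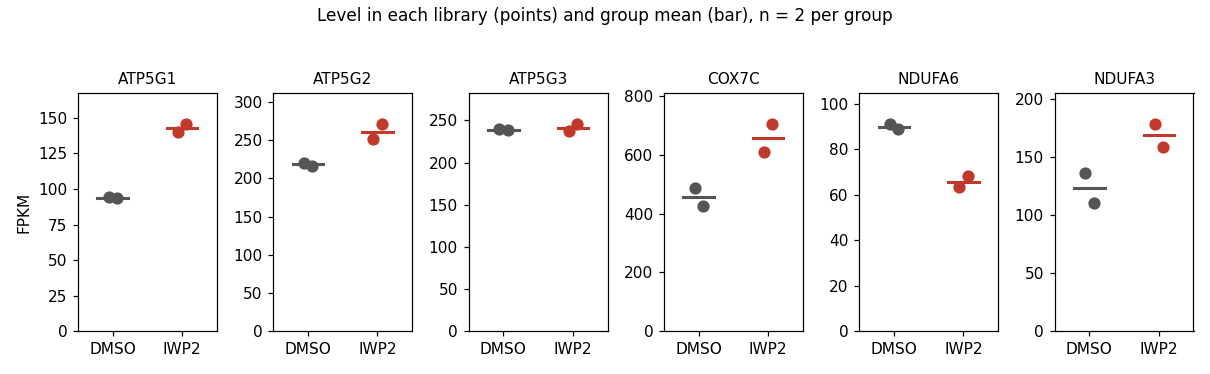
FPKM in each library (points) with the group mean (bar) for ATP5G1, ATP5G2, ATP5G3, COX7C, NDUFA6 and NDUFA3 in DMSO (grey, n = 2) and IWP2 (red, n = 2), each panel on its own axis from 0. ATP5G1 and COX7C are higher with IWP2, NDUFA6 is lower, ATP5G3 is level, and NDUFA3 and ATP5G2 are apart between groups without passing the test.

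All 10 tested Fo and stalk members had a difference of 0.01 or more, with a median of 0.13. The stalk subunit ATP5O, which ties the head to the stalk, had 122.6 and 120.3 FPKM in DMSO and 144.1 and 149.9 FPKM in IWP2 (difference 0.27, SE 0.08, adjusted p = 0.0755). ATP5H, also of the stalk, had 211.3 and 189.8 FPKM against 231.0 and 260.5 FPKM (difference 0.29, SE 0.10, adjusted p = 0.130). Both were without overlap, and the stalk subunit ATP5F1 stayed level at 137.1 and 140.0 FPKM against 137.6 and 142.1 FPKM. ATP5J2, a small membrane subunit, had the highest level of all members, at 720.8 to 830.5 FPKM, with overlapping groups. ATP5L was the lowest tested member of this group, at 85.3 to 108.8 FPKM. ATP5S, named for ATP synthase but not a subunit of the enzyme, had 6.37 and 4.94 FPKM against 7.29 and 6.79 FPKM (difference 0.28, SE 0.15, adjusted p = 0.287).

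Summed over each complex, levels were within a narrow band. All members together reached 11275 and 10725 FPKM in DMSO and 11301 and 12313 FPKM in IWP2, a difference of 7.34%. Complex IV differed most, with 2395 and 2346 FPKM in DMSO against 2505 and 2820 FPKM in IWP2 (12.3%), and Fo with the stalk next, with 2619 and 2343 FPKM against 2668 and 2823 FPKM (10.7%). Both were above both DMSO libraries in each IWP2 library, as was complex III at 7.69%. Without COX7C the complex IV difference was 4.80%. Without IWP2 replicate 2 it was 5.66%, Fo with the stalk was at 7.53% and complex III at 4.29%, and without DMSO replicate 2 Fo with the stalk was at 4.83%. The complex I core (1.92%), the complex I accessory subunits (3.66%), complex II (5.71%) and F1 (1.99%) overlapped between groups, and their sums lay below DMSO without IWP2 replicate 2 (-3.95%, -1.26%, -1.39% and -0.392%). FPKM were also rescaled to TPM, which makes every library sum to the same total. The log2 ratios of the sums of the complex I core (0.03) and of F1 (0.03) then became -0.0022 and -0.0011. Those of complex III (0.11), complex IV (0.17) and Fo with the stalk (0.15) became 0.08, 0.14 and 0.12. With libraries scaled by the median ratio of their genes instead, these were 0.13, 0.19 and 0.17. In each of the 7 groups the IWP2 replicate 2 sum was the highest of the 4 libraries.

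**Figure D4:**
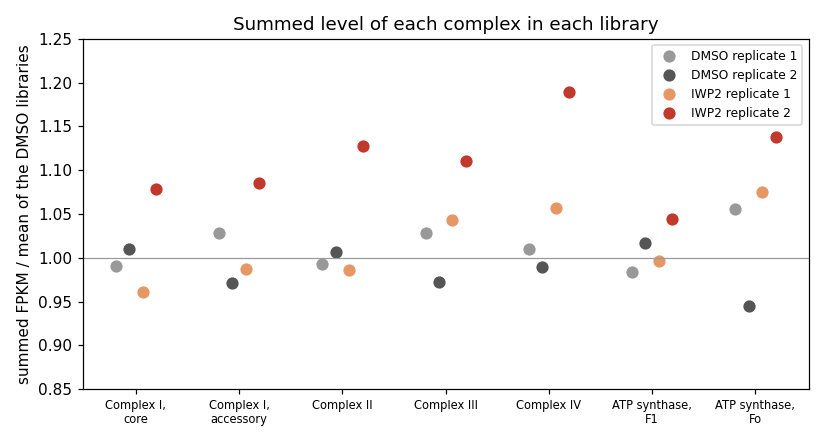
Summed FPKM of the members of each complex in each library divided by the mean of the DMSO libraries (vertical axis, not starting at 0), with 4 points per complex. IWP2 replicate 2 is the highest point of every complex, and IWP2 replicate 1 lies above both DMSO libraries for complex III, complex IV and Fo alone.

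The members were abundant transcripts, with a median level of 111.3 FPKM against 10.2 FPKM over all genes tested, and 71 of 76 (93.4%) reached 20 FPKM, as 31.8% of all genes tested did. The tested members below 20 FPKM were NDUFV3, COX7B, ATP5E, ATP5S and the second SDHD row. Isoform and copy genes of the subunits, several of them known from muscle, lung or testis, were low. Of these 8, 7 were below the filter. COX4I2, COX7B2 and COX8C were listed at 0 in every library, and NDUFA4L2 did not pass 0.202 FPKM. COX6B2, the testis isoform of COX6B1, was listed at 0.194 and 0.204 FPKM in DMSO and 1.34 and 0.732 FPKM in IWP2, below the filter. Within the filter, UQCRHL, a copy of UQCRH, had 1.84 to 2.61 FPKM.

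Few other genes of the pathway were called, while 15.2% of all genes tested were. A list of 7 further genes linked to the chain or to ATP synthase lay outside the symbol patterns, such as cytochrome c (CYCS) and cytochrome c1 (CYC1). It had no call by limma and a median difference of -0.04. The 1 gene with an unadjusted p under 0.05 was ATPIF1, at 342.5 and 339.6 FPKM in DMSO and 379.3 and 450.9 FPKM in IWP2 (difference 0.28, SE 0.11, adjusted p = 0.157). Cytochrome c had 126.4 and 138.8 FPKM in DMSO and 128.7 and 129.5 FPKM in IWP2. Of 48 assembly factors, which build the complexes, 1 was called by limma (2.08%). An unadjusted p under 0.05 was seen in 5 of them, against 30.3% of all genes tested. The called gene COX20, a chaperone of the COX2 subunit of complex IV, rose from 15.9 and 18.9 FPKM to 25.5 and 26.7 FPKM (difference 0.57, SE 0.12, adjusted p = 0.0326). NDUFAF5, a complex I assembly factor, had 19.3 and 17.5 FPKM against 13.5 and 10.7 FPKM (difference -0.57, SE 0.14, adjusted p = 0.0547).

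Of 19 regulators of mitochondrial biogenesis 17 were tested and none was called by limma, with 2 at an unadjusted p under 0.05. Over all genes tested the shares were 15.2% called and 30.3% at an unadjusted p under 0.05. ESRRA, a nuclear receptor of respiratory genes, had 27.8 and 25.5 FPKM in DMSO and 20.2 and 20.1 FPKM in IWP2 (difference -0.39, SE 0.09, adjusted p = 0.0532). NRF1 had 7.35 and 8.38 FPKM against 8.28 and 7.34 FPKM, with overlap. Of the GABP subunit genes, GABPA had a difference of -0.12 (adjusted p = 0.505). GABPB1 had 17.9 and 19.3 FPKM against 14.6 and 15.1 FPKM, without overlap (difference -0.31, SE 0.10, adjusted p = 0.102). The coactivators PPARGC1A and PPARGC1B were below the filter.

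The 13 mitochondrially encoded subunits, partners of the members in complexes I, III, IV and V, had no call and none at an unadjusted p under 0.05, with a median difference of 0.16 (-0.01 to 0.25). MT-CO1, the catalytic subunit of complex IV, had 4843 and 5056 FPKM in DMSO against 4980 and 5286 FPKM in IWP2. MT-ATP8 was unstable, with 33374 and 9279 FPKM in DMSO and 26236 and 11660 FPKM in IWP2. The 20 genes of the citric acid cycle and pyruvate dehydrogenase had no call, 5 at an unadjusted p under 0.05 and a median of -0.08, with 11 of the 20 below both DMSO libraries in both IWP2 libraries. Over all genes tested 15.2% were called, 30.3% had an unadjusted p under 0.05 and 31.9% lay below DMSO in this way.

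Among 17 tested genes of mitochondrial carriers, import and membrane, the ADP/ATP carrier SLC25A4 rose from 18.1 and 15.6 FPKM to 25.2 and 26.3 FPKM (difference 0.58, SE 0.11, adjusted p = 0.0253) and no other was called. Of 78 mitochondrial ribosomal protein genes MRPS9, MRPL34 and MRPL11 rose (0.61, 0.51 and 0.40) and MRPL53 fell (-0.38), with a median of 0.02 over the list. The called share was 5.88% for the carrier list and 5.13% for the mitochondrial ribosomal list, against 15.2% of all genes tested. The 79 tested cytosolic ribosomal protein genes had no call and none at an unadjusted p under 0.05, and a median of 0.08, near that of the respiratory chain members.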

How the data were processed

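RNA of H1 cells was extracted with Trizol and made into libraries with the Illumina TruSeq RNA kit from 2 ug of total RNA, per the labels. The deposited table holds FPKM for 4 libraries, 1 column each. The authors' processing notes name BWA, Bowtie, RSEM and hg19 without versions or roles. The header names no unit: FPKM was inferred from the values, which are not whole reads and whose sums differ between libraries. Row coordinates were those of GRCh38 and not hg19, since 55629 of 55723 gene IDs shared with GENCODE release 29 had the same coordinates (99.8%), and GRCh38 positions are printed. The columns headed with a minus sign were taken as the DMSO group and those with a plus sign as IWP2, numbered as in the header.

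Rows with a mean of at least 1 FPKM (14022 of 58365) were tested on log2(FPKM + 1), a pseudocount of 1, which understates the change of low genes. limma 3.58.1 (R 4.3.3) with a trend of the variance on the mean level compared IWP2 with DMSO without covariates, two-sided, and p-values were adjusted by Benjamini-Hochberg over all rows tested. A gene was called at an adjusted p under 0.05, and every adjusted p printed is of this kind. 95% intervals used the moderated degrees of freedom (5.24). The code was tested on simulated data. The unpaired and paired tests of the study's methods were replaced by limma because 2 libraries per group need a spread pooled over genes. Python 3.11.15 with pandas 2.3.3 and matplotlib 3.10.9 did the rest.

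The members, gene lists and motifs were chosen with earlier results of these data known. Named genes were the called members, in each complex those with the highest and lowest level and the largest difference in each direction, members at 0 or under the filter, ATP5G1 to ATP5G3 and up to 4 called genes of each list. The other genes named were chosen after their values were seen. Sequences came from RefSeq, and protein sequences were not analysed here. The values of 1 gene named by this rule are not reported here, in text or plots. Alternatives tried were another pseudocount, other filters, scalings, no variance trend, a replicate block and each library left out.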

Additional observations from a re-analysis of the deposited data

How the results depend on the processing

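The 2129 genes called became 381 (of 28917 tested) without a filter on low values, 238 to 1375 with 1 library left out and 1620 to 2173 under the other settings. Members called higher were 2, and became 1 without the filter (ATP5G1), 4 with quantile normalization (with NDUFB5 and ATP5O), 1 without the variance trend and 0 to 1 with 1 library left out; 3 with median-ratio scaling (with NDUFB5). Members called lower were 1 (NDUFA6), and became 0 without the filter, 0 without the variance trend and 0 with any 1 library left out. Where a group was left with 1 library, it was assumed to vary like the others. Fewer libraries make a fit weaker by construction. Without the filter on low values the SE was 0.0555 for NDUFA6 (0.0819 in the main fit), 0.0448 for ATP5G1 (0.0758) and 0.128 for COX7C (0.117). Why fewer genes were called there was not tested. ATP5G1 was called under each setting but those without an IWP2 library. The members' median of 0.07 ranged from -0.01 to 0.13 with 1 library left out, and otherwise from 0.04 with TPM to 0.09 with quantile normalization. Leaving out libraries or a gene for the summed levels was added after seeing the data: the log2 ratio ranged from -0.0582 to 0.108 for the complex I core, -0.0202 to 0.174 for complex II and 0.0795 to 0.2502 for complex IV with 1 library left out, and was 0.0676 for complex IV without COX7C. Differences near 0 changed sign: with TPM ATP5F1 was -0.0154 and ATP5G3 -0.0144, and with 1 library left out NDUFS5 ranged from -0.0231 to 0.0992, COX7A2 from -0.115 to 0.0268, COX7B from -0.0594 to 0.125, ATP5E from -0.0346 to 0.167, ATP5F1 from -0.0106 to 0.0357, ATP5G3 from -0.0103 to 0.0375 and ATP5J2 from -0.0173 to 0.180.

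Replicate numbers are shared by label only. The deviations of the same-numbered libraries from their group means correlated at r = 0.152 across 14022 genes. With 2 libraries per group both pairs give the same r by construction, so this is 1 value. It does not show that the libraries are paired. With a replicate block 1927 genes were called and 2 members were higher and 1 lower, COX7C losing its call (adjusted p = 0.0598) and NDUFA3 gaining one (adjusted p = 0.0345). With median-ratio scaling and the block together, a setting added after seeing the data, 2089 genes and ATP5G1, COX7C, NDUFA3 and NDUFA6 were called. With 2 libraries per group and unknown depth, the difference of 0.45 of NDUFA3 (SE 0.13) did not pass the test in the main fit. That of -0.45 of NDUFA6 (SE 0.08) did.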
